A study of Marchantia polymorpha with 78 samples.

Results

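Among the genes of the liverwort Marchantia polymorpha, 29 of 19355 were far lower after 24 h of white, blue and red light than in darkness, while 24 h of far-red light left them near the dark level. They were chosen on the deposited group means at 24 h, written as log2(CPM + 1). CPM stands for estimated read counts scaled to a sum of 1000000 in each library, with no scaling for gene length, so levels cannot be compared between genes. A gene was taken when light minus darkness was -2 or less in each of white, blue and red light and the far-red difference was under 0.5 in size. Of 204 genes with such falls in the first 3 lights, these 29 stayed near darkness in far-red. Another 112 were lower by 1 or more in far-red as well and serve below for comparison, 54 lay between -1 and -0.5, and 9 were higher in far-red by 0.5 or more.

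The plants were Tak-1, a male wild type line. They were raised from gemmae on medium with sucrose, under continuous white light for 8 days, and then spent 24 h in the dark. The plates then went into white (50 to 60 µmol m-2 s-1), blue (30 to 40, peak at 430 nm), red (80 to 90, peak at 660 nm) or far-red light (30 to 40, peak at 730 nm), or stayed in darkness. Each was sampled after 30 min, 60 min, 3 h, 12 h and 24 h, and a further group was taken at time zero, at the end of the dark period. All 26 groups had 3 libraries of poly(A) RNA, and each library pooled 3 plants. Since 1 plate held the 3 replicates of a condition, plate and treatment cannot be told apart, and the intensities differed between lights.

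Plants sense red and far-red light with phytochrome, a photoreceptor that red light turns into its active form and far-red light turns back. Blue light is sensed by cryptochromes and phototropins. White, blue and red light also drive photosynthesis, which far-red light alone does poorly. Genes that are high in prolonged darkness and low in light include, in flowering plants, many that serve the use of stored reserves and the response to stress.

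Symbols were known for 9 of the 29 genes. They are MpERF10, a transcription factor of the AP2/ERF family; MpPP2C_F3, a protein phosphatase of type 2C; and MpSAUR10, of a family of small proteins that respond to auxin in flowering plants. MpDHN2 is a dehydrin, a hydrophilic protein of water stress, and MpCALEOSIN belongs to the calcium-binding proteins of lipid droplets. MpDIR39 is a dirigent protein, of a family that steers the coupling of phenolic radicals in flowering plants. MpPPO32 is a polyphenol oxidase, an enzyme that oxidises phenols, and MpGH19.3 and MpGH19.8 belong to glycoside hydrolase family 19, which holds chitinases. The other 20 carry only identifiers, and no role is given for them here. By their identifiers the 29 genes lay on all 8 autosomes, with 8 on chromosome 4.

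At 24 h, the time that chose them, the log2 difference from darkness ran from -7.63 to -2.14 in white light (median -2.79), from -6.46 to -2.03 in blue (median -2.47) and from -7.96 to -2.36 in red (median -2.94). In far-red light it ran from -0.50 to 0.12 with a median of -0.36, and 26 of the 29 values were below 0. These values are the choice itself and are not tested. The far-red limit passed through a dense region: Mp4g21380 and Mp7g06170 lay just inside at -0.4999 and -0.4836, and Mp6g02360 just outside at -0.5016. At the fall limit in blue light, MpERF10 (-2.026) and Mp3g19310 (-2.045) lay inside, and MpEXL6, an expansin-like gene, lay outside at -1.992. The membership leaned on scaling: with TMM factors, which align the libraries on the bulk of their genes, 16 genes met the rule, of which 15 were among the 29.

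Depth, recovered from the step that 1 read makes in each library, was 17237516 to 42465633 estimated reads, so that 1 read was worth 0.0235 to 0.0580 CPM. Replicates correlated at 0.9881 or more across genes, with the lowest value in darkness at 60 min, where replicate 3 stood apart. In far-red light at 60 min, replicate 3 also stood apart for several of the 29 genes, as given below. Over all 13054 genes tested, the median difference from darkness on the log2 scale was 0.134 to 0.204 after 30 or 60 min of white, blue or red light, 0.12 after 60 min of far-red, and near 0 with TMM factors.

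The falls were tested at 30 min, 60 min, 3 h and 12 h, in libraries that had no part in the choice of the genes. Tests were made with limma across all 13054 genes, and a gene counts as risen or fallen where its log2(CPM + 1) difference was at least 1 in size with a p, adjusted by Benjamini-Hochberg, under 0.05. At each time the 4 lights share the same 3 dark libraries. After 12 h all 29 genes had fallen in white, in blue and in red light, against 10.0%, 8.84% and 11.1% of all tested genes. Of the 112 comparison genes 100%, 98.2% and 98.2% had fallen too, so these falls were not particular to the 29. Every light library lay below every dark library for each of the 29 in each of these lights, which held for 35.2%, 35.2% and 36.1% of all tested genes. The median differences were -2.44 in white (range -6.08 to -1.31), -1.97 in blue (-4.80 to -1.005) and -2.37 in red (-5.64 to -1.21), against medians of 0.071, 0.047 and 0.053 over all genes. In whole thalli, fewer cells that express a gene and less RNA per cell cannot be told apart.

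**Figure D1:**
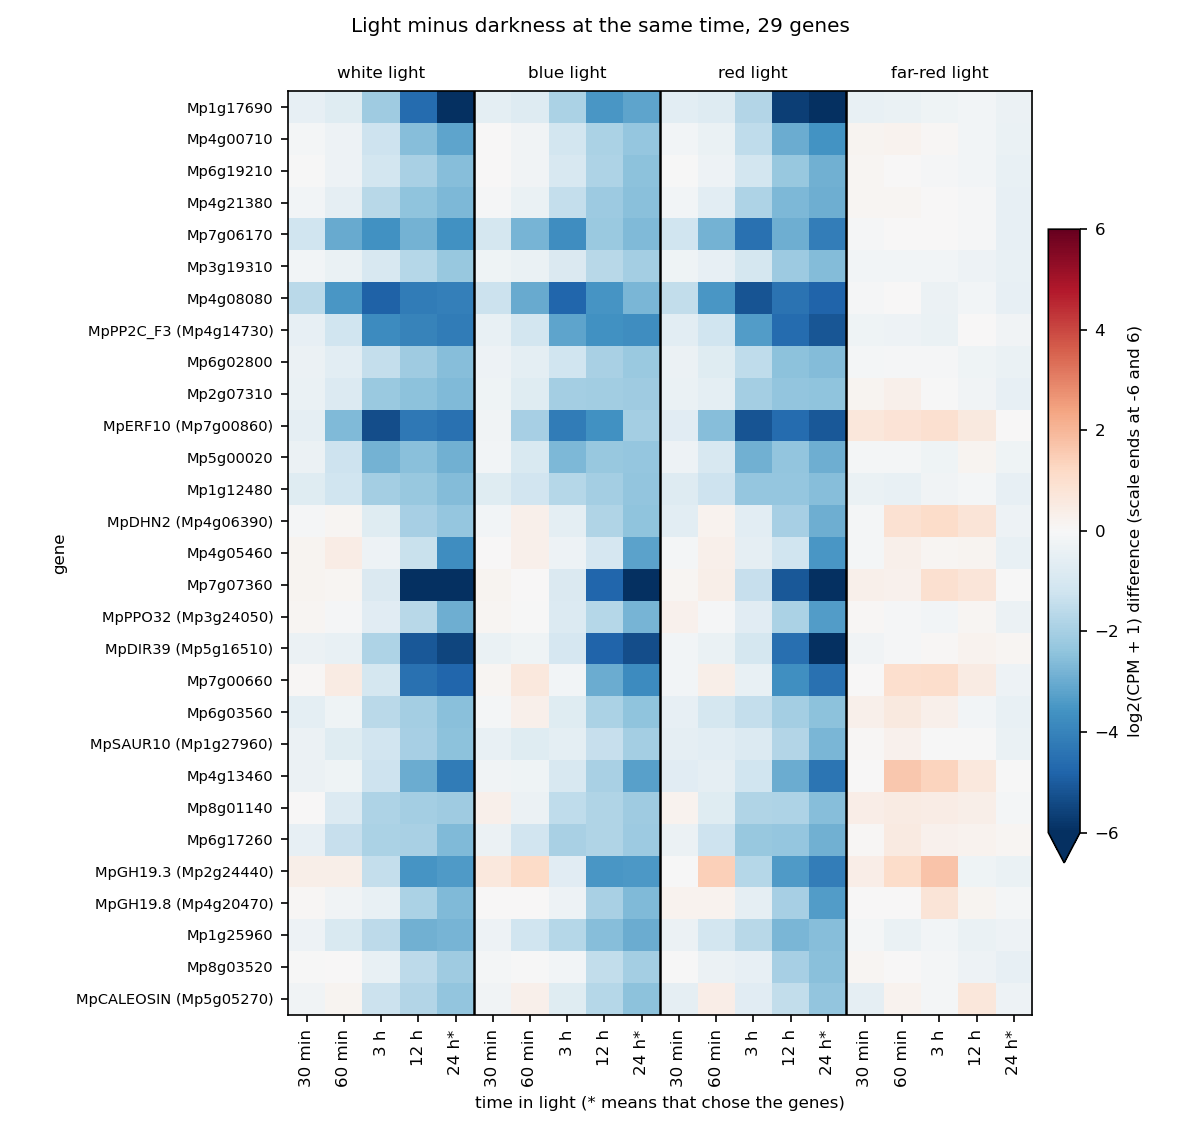
Difference from darkness at the same time, in log2(CPM + 1), for the 29 genes (rows, ordered by mean CPM in darkness) in white, blue, red and far-red light (blocks) after 30 min to 24 h (columns). All 29 are lower in white, blue and red light at 12 h, while far-red values at 12 h stay between -0.41 and 0.78; the columns at 24 h chose the genes.

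The gene with the most reads in the dark libraries before 24 h was Mp1g17690. At 12 h it stood at 78.3, 87.3 and 81.0 CPM in white, 199, 193 and 162 CPM in blue, 37.1, 43.6 and 39.8 CPM in red and 1650, 1897 and 1899 CPM in far-red light, against 1992, 2156 and 2005 CPM in darkness. The 3 groups in white, blue and red did not overlap each other, red was the lowest, and the far-red libraries all lay under the dark ones. Its log2 difference was -4.63 in white, -3.47 in blue and -5.64 in red (SE 0.08 each), with an adjusted p of 2.2e-57 for red.

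Mp4g00710 showed a smaller, graded fall, with 431, 450 and 418 CPM in white, 675, 712 and 655 CPM in blue, 334, 318 and 322 CPM in red and 2330, 2294 and 2328 CPM in far-red light, against 2538, 2566 and 2638 CPM in darkness. Its far-red libraries all lay under its dark ones, by -0.16 ± 0.04 (SE). Red was again lowest and blue highest among the 3 lights with a fall. The next genes by reads, Mp6g19210, Mp4g21380 and Mp3g19310, fell in the 3 lights too, with log2 differences of -2.71 to -1.64.

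Mp7g06170 had 109, 118 and 106 CPM in white, 163, 172 and 165 CPM in blue, 103, 102 and 100 CPM in red and 755, 725 and 773 CPM in far-red light, against 819, 802 and 755 CPM in darkness. Far-red and dark libraries of this gene overlapped, and the 3 other lights lay far below both. The unnamed gene Mp7g07360 had the deepest fall of all in white light at 12 h, with 1.33, 0.767 and 1.31 CPM in white, 2.97, 5.83 and 4.41 CPM in blue, 2.75, 3.99 and 3.14 CPM in red and 223, 230 and 250 CPM in far-red light, against 143, 144 and 141 CPM in darkness. For this gene the far-red libraries lay above the dark ones (log2 difference 0.71 ± 0.14 SE, adjusted p = 1.6e-05, short of the fold asked for).

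Among the regulators, MpERF10 had 6.07, 6.95 and 7.55 CPM in white, 10.7, 11.2 and 12.7 CPM in blue, 5.29, 4.98 and 5.60 CPM in red and 228, 233 and 223 CPM in far-red light at 12 h, against 132, 165 and 167 CPM in darkness. White, blue and red were far below darkness, and far-red was above it in every library. The log2 differences were -4.30, -3.63 and -4.62 in white, blue and red (SE 0.11 each, largest adjusted p 5.2e-38). The phosphatase gene MpPP2C_F3 fell about as far, to 6.01, 7.12 and 5.85 CPM in white, 6.96, 9.54 and 9.36 CPM in blue and 4.00, 3.96 and 3.69 CPM in red light, with 117, 115 and 131 CPM in far-red, against 109, 121 and 122 CPM in darkness. Far-red and dark libraries overlapped for it, with a difference of 0.04 ± 0.10 (SE). MpSAUR10 fell less, to 7.43, 8.52 and 7.72 CPM in white, 14.1, 12.9 and 11.2 CPM in blue and 10.7, 9.34 and 8.48 CPM in red, with 37.1, 32.8 and 30.8 CPM in far-red, against 33.3, 37.3 and 33.3 CPM in darkness. Its blue libraries all lay above its red and its white ones.

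The dehydrin and caleosin genes fell in white, blue and red light, and at 12 h their far-red libraries lay above their dark ones. MpDHN2 had 12.3, 14.3 and 13.2 CPM in white, 15.8, 14.4 and 15.2 CPM in blue, 13.6, 15.4 and 10.7 CPM in red and 90.7, 88.7 and 106 CPM in far-red light, against 60.7, 55.3 and 49.7 CPM in darkness. Its far-red difference of 0.78 ± 0.11 (SE, adjusted p = 2.5e-08) was the highest of the 29 and did not reach the fold asked for. MpCALEOSIN, with few reads, had 1.53, 0.452 and 0.680 CPM in white, 0.926, 0.712 and 0.961 CPM in blue, 0.912, 1.28 and 1.46 CPM in red and 9.61, 7.28 and 9.53 CPM in far-red, against 5.25, 5.47 and 4.62 CPM in darkness. Its falls of -1.73, -1.71 and -1.47 are understated by the pseudocount of 1, and with a pseudocount of 5 they no longer reached the fold (-0.78, -0.79 and -0.70).

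Of the dirigent, glycoside hydrolase and polyphenol oxidase genes, MpDIR39 fell the furthest. It had 0.456, 1.02 and 0.782 CPM in white, 0.665, 1.66 and 1.13 CPM in blue and 1.16, 1.34 and 2.27 CPM in red light. In far-red it had 65.6, 65.3 and 70.1 CPM, against 54.6, 56.4 and 62.3 CPM in darkness. Its differences of -5.08, -4.80 and -4.52 (SE 0.14 each) were lowest in white and least low in red, where Mp1g17690 was lowest. MpGH19.3 fell to 0.786, 0.806 and 0.793 CPM in white, 0.712, 0.896 and 0.916 CPM in blue and 0.434, 1.13 and 1.56 CPM in red, with 15.4, 13.7 and 20.2 CPM in far-red, against 18.9, 18.9 and 21.1 CPM in darkness. Far-red and dark libraries overlapped. MpGH19.8, of the same enzyme family, kept more of its RNA, with 6.20, 6.63 and 6.66 CPM in white, 6.11, 6.67 and 5.55 CPM in blue and 6.06, 5.13 and 7.04 CPM in red, and 28.2, 31.2 and 31.6 CPM in far-red, against 27.7, 24.5 and 28.1 CPM in darkness. MpPPO32 fell by 1.66 in white, 1.73 in blue and 1.92 in red on the log2 scale, and its far-red libraries (69.2, 68.0 and 74.9 CPM) lay above its dark ones (63.0, 66.5 and 67.8 CPM) by a difference of 0.10 ± 0.10 (SE, adjusted p = 0.40).

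**Figure D2:**
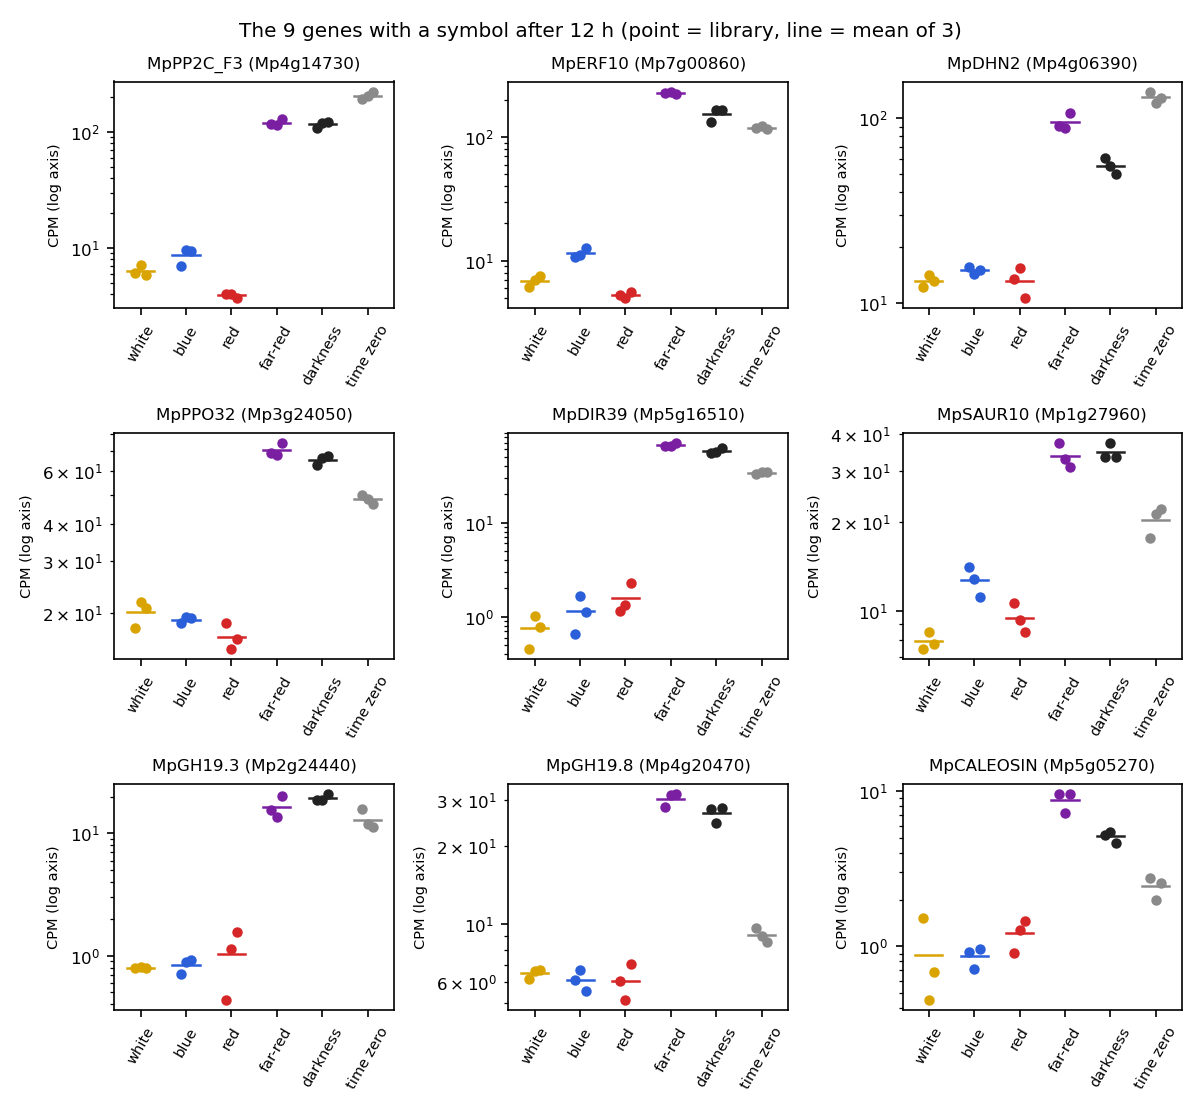
CPM on log axes after 12 h in white, blue, red and far-red light and in darkness, and at time zero, for the 9 genes with a symbol; points are libraries and lines the means of 3. Far-red libraries lie at or above the dark level for MpERF10 (223 to 233 CPM), MpDHN2 (88.7 to 106 CPM) and MpCALEOSIN (7.28 to 9.61 CPM), while white, blue and red lie below both groups in all 9 panels.

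The weakest fall at 12 h was that of Mp4g05460, with 29.5, 25.4 and 25.9 CPM in white, 33.8, 33.6 and 33.2 CPM in blue and 30.2, 28.6 and 28.2 CPM in red, against 74.8, 63.4 and 67.2 CPM in darkness. In blue light its difference was -1.005 ± 0.08 (SE), at the edge of the call, and it missed the fold without replicate 1 of darkness at 12 h (-0.94) or without replicate 3 of blue light (-0.9991). Mp8g03520, the gene with the fewest reads in darkness after MpCALEOSIN, was lower by 1.57 in white, 1.48 in blue and 2.01 in red, and missed the fold with a pseudocount of 5.

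The falls did not pass the threshold together. After 30 min 2 of the 29 had fallen in each of white, blue and red light, against 0.437%, 0.613% and 0.575% of all genes. After 60 min 7, 7 and 8 had fallen (2.33%, 2.11% and 2.41% of all genes), and after 3 h 22, 15 and 21 (8.53%, 8.09% and 8.69% of all genes). Of the 112 comparison genes 7.14%, 5.36% and 13.4% had fallen at 30 min. These shares were 22.3%, 22.3% and 25.9% at 60 min, and 81.2%, 70.5% and 66.1% at 3 h. Taking the first time at which a gene had fallen in all 3 lights, 2 of the 29 belong to 30 min, 4 to 60 min, 9 to 3 h and 14 to 12 h. These are times of passing the fold, and a slow fall that began early passes late. No share of all genes is given for this joint count, which describes the 29 alone. At an adjusted p under 0.05 in limma alone, 16, 12 and 19 of the 29 were lower in these lights at 30 min. The shares of all genes for this are given in the last section. By the mean over the 3 lights, a median of 52.2% of the 12 h difference was present at 3 h, with a range of 14.95% to 147%.

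The 2 genes that passed the threshold first were Mp4g08080 and Mp7g06170. At 30 min Mp4g08080 had 106, 97.9 and 90.2 CPM in white, 123, 121 and 121 CPM in blue, 106, 112 and 107 CPM in red and 278, 300 and 280 CPM in far-red, against 301, 299 and 298 CPM in darkness. At 3 h it was down to 11.8, 9.80 and 11.4 CPM in white, 12.0, 10.9 and 13.3 CPM in blue and 8.57, 8.70 and 8.62 CPM in red, with 288, 272 and 271 CPM in far-red, against 357, 342 and 347 CPM in darkness. Its differences at 3 h were -4.87, -4.75 and -5.18 in white, blue and red (SE 0.07 each), and their mean of -4.93 was the lowest of the 29, next to -4.90 for MpERF10.

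Mp7g06170 stood at 235, 224 and 201 CPM in white, 257, 230 and 253 CPM in blue and 218, 219 and 226 CPM in red after 30 min, with 478, 495 and 490 CPM in far-red, against 487, 507 and 521 CPM in darkness. The blue difference was -1.03 ± 0.05 (SE), and without replicate 2 of every group only 1 gene had fallen in blue light at 30 min. At 3 h it was lower still, with 27.4, 23.8 and 27.5 CPM in red light against 590, 611 and 585 CPM in darkness.

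The 4 genes that joined these at 60 min, having fallen in all 3 lights for the first time, were MpERF10, MpPP2C_F3, Mp1g12480 and Mp6g17260. MpERF10 had 19.8, 15.8 and 15.4 CPM in white, 29.1, 27.7 and 25.3 CPM in blue and 20.4, 17.7 and 16.5 CPM in red at 60 min, with 183, 175 and 248 CPM in far-red, against 102, 91.6 and 146 CPM in darkness. Replicate 3 was the highest in both of the last groups. At 3 h the gene was at 3.69 to 5.03 CPM in white and red and 9.39 to 10.4 CPM in blue light, with 412, 368 and 390 CPM in far-red, against 192, 196 and 208 CPM in darkness.

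Some later genes had not fallen after 60 min. Mp7g07360 had 34.6, 34.95 and 33.9 CPM in white, 33.4, 30.1 and 34.0 CPM in blue and 44.3, 39.9 and 38.5 CPM in red at 60 min, against 37.9, 28.4 and 28.7 CPM in darkness. White and blue libraries overlapped darkness, and the red difference was 0.37 ± 0.14 (SE). MpGH19.3 had instead risen at 60 min in blue (35.4, 18.9 and 23.4 CPM) and in red light (28.3, 40.8 and 26.7 CPM), against 9.42, 10.1 and 13.7 CPM in darkness. It was the only one of the 29 to rise in white, blue or red at any tested time, by 1.13 ± 0.27 in blue (adjusted p = 2.0e-04) and 1.44 ± 0.27 in red (SE, adjusted p = 3.4e-06). Over all tested genes the share that rose at 30 min was 2.49% in white, 4.50% in blue and 4.19% in red, and 7.41%, 8.56% and 9.89% at 60 min. In the same order of lights it was 10.6%, 9.64% and 10.1% after 3 h, then 13.4%, 10.8% and 13.2% after 12 h.

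For 5 of the 29 the mean fall was largest at 3 h and for 24 at 12 h, a description with no share of all genes beside it. The change of the response from 3 h to 12 h was tested as a contrast chosen after the data were seen. The difference from darkness became more negative for 12 genes in white, 9 in blue and 15 in red (3.34%, 3.23% and 3.78% of all genes). It became less negative for 1, 2 and 1 (4.36%, 4.99% and 5.35% of all genes). Both sets of shares count any gene whose difference moved down or up by this test, also where the difference was positive. MpERF10 in white, Mp7g06170 in blue and red and Mp4g08080 in blue were those that became less negative. For Mp4g08080 this meant 25.6, 25.2 and 26.2 CPM in blue light at 12 h, above its 3 h libraries. A rise in darkness also makes the difference more negative. From 3 h to 12 h the mean of MpGH19.8 went from 8.74 to 6.50 CPM in white light and from 12.15 to 26.75 CPM in darkness. For Mp7g07360 the dark mean went from 44.1 to 142 CPM, and its mean in white light went from 23.9 to 1.13 CPM. Its means in blue and in red light were also lower at 12 h than at 3 h.

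**Figure D3:**
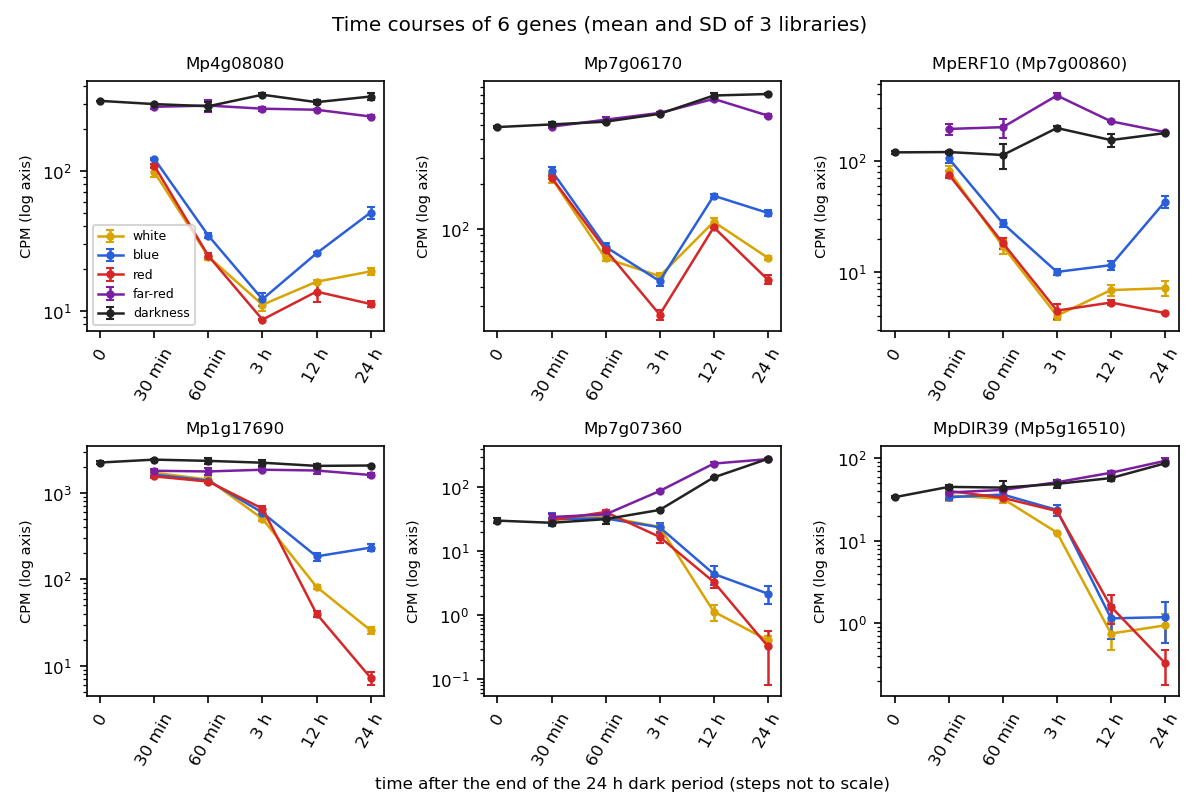
Mean CPM on log axes with SD over 3 libraries for 6 genes, in white, blue, red and far-red light and in darkness, from time zero to 24 h (time steps not to scale). The upper 3 genes are lowest at 3 h in blue light and the lower 3 go on falling after 3 h, while far-red stays above the other lights from 3 h on.

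In far-red light none of the 29 passed the test at 30 min or at 12 h, while 0.253% of all genes rose and 0.0383% fell at 30 min, and 2.21% rose and 1.04% fell at 12 h. The 12 h median was -0.04 (range -0.41 to 0.78), against 0.07 for all genes. The differences were not 0 for all: asking only for an adjusted p under 0.05 in limma, 8 genes were higher and 8 lower at 12 h, where 33.7% of all genes were higher and 20.1% lower, and 7 were higher and 6 lower at 30 min, where these shares were 28.0% and 11.7%. An unadjusted p under 0.05 was found for 15 of the 29 at 30 min and 17 at 12 h, against 46.6% and 58.6% of all genes, so these counts were near the background. With voom none passed at 12 h. The lowest far-red value at 12 h was that of Mp1g25960, with 7.50, 8.53 and 8.40 CPM in far-red against 11.3, 12.5 and 9.87 CPM in darkness (-0.41 ± 0.16 SE, adjusted p = 0.020). Mp3g19310 followed, with 319, 349 and 354 CPM in far-red against 439, 420 and 389 CPM in darkness.

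At 60 min 3 of the 29 had risen in far-red light and none had fallen, against 2.05% and 0.276% of all genes. Mp4g13460 had 80.8, 75.2 and 32.1 CPM in far-red against 21.5, 17.0 and 15.9 CPM in darkness, Mp7g00660 had 103, 98.7 and 48.7 CPM against 38.6, 39.1 and 37.4 CPM, and MpGH19.3 had 29.1, 25.9 and 19.7 CPM against 9.42, 10.1 and 13.7 CPM. Replicate 3 of far-red was the lowest for all 3 genes, and also for MpDHN2 (225, 218 and 138 CPM) and MpSAUR10 (42.5, 43.4 and 21.8 CPM). Without that library, or without replicate 3 of darkness at 60 min, 4 genes rose, and without replicate 1 of every group 1 did. The differences of Mp7g00660 (1.03 ± 0.14 SE) and MpGH19.3 (1.10 ± 0.27 SE) fell short of the fold with TMM factors, at 0.90 and 0.98.

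At 3 h 4 had risen in far-red light and none had fallen, against 1.71% and 0.253% of all genes. MpGH19.3 had 40.5, 64.9 and 37.3 CPM in far-red against 15.2, 10.0 and 16.2 CPM in darkness (1.70 ± 0.27 SE), and Mp4g13460 had 48.1, 46.8 and 46.3 CPM against 19.1, 17.6 and 17.3 CPM (1.34 ± 0.15 SE). MpDHN2 had 168, 184 and 190 CPM in far-red against 83.0, 82.0 and 86.6 CPM in darkness (1.10 ± 0.11 SE). Mp7g00660 rose by 1.04 ± 0.14 (SE), which was 0.97 with TMM factors. MpERF10 and Mp7g07360 were each higher by 0.97 at this time and stayed just under the fold. Of these 6 genes at the same hour, MpERF10 had fallen in white, blue and red, MpGH19.3 and Mp4g13460 in white and red, Mp7g00660 in white and Mp7g07360 in red. In blue light MpGH19.3 (-0.68), Mp4g13460 (-0.97) and Mp7g07360 (-0.89) did not reach the fold, and Mp7g00660 overlapped darkness (-0.15). MpDHN2 did not reach it in white (-0.71), blue (-0.59) or red (-0.63).

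Of the 112 genes that were lower in far-red at 24 h, 48 (42.9%) had fallen in far-red light at 12 h, with a median of -0.94, against none of the 29. This difference follows the choice of the 2 sets at 24 h and is given as a description. In red light at 12 h the medians were -2.37 for the 29 and -2.60 for the 112, and at 30 min of far-red light neither set had a gene past the threshold. At 60 min of far-red light 6 of the 112 (5.36%) had risen and none had fallen, against 3 of the 29 (10.3%) risen. At 3 h 4 of the 112 (3.57%) had risen and 7 (6.25%) had fallen, against 4 of the 29 (13.8%) risen and none fallen.

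**Figure D4:**
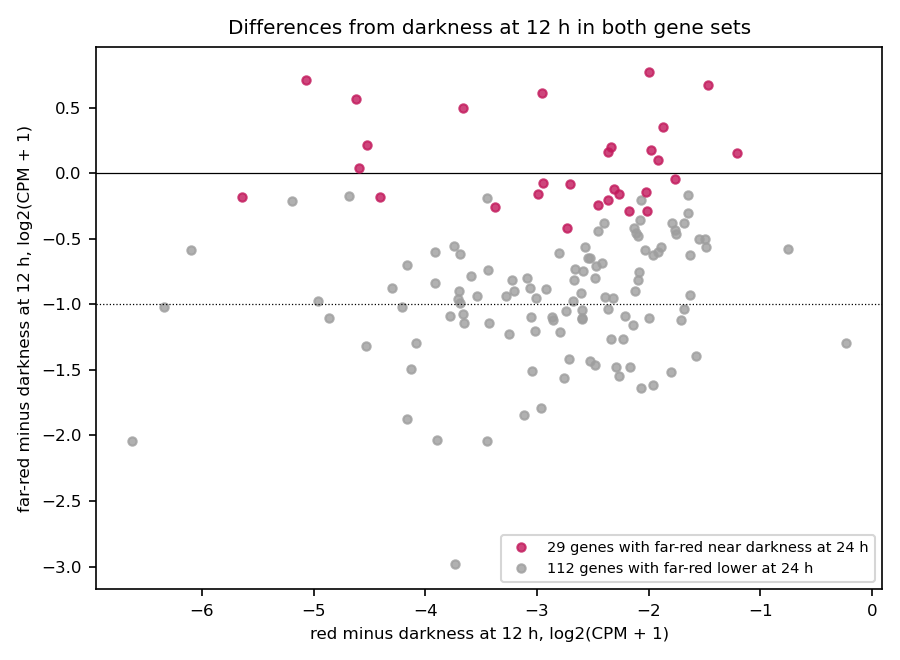
Far-red minus darkness against red minus darkness at 12 h, both in log2(CPM + 1), for the 29 genes and for the 112 genes that were lower in far-red at 24 h; each point is a gene. The 29 lie between -0.41 and 0.78 on the far-red axis and the 112 between -2.98 and -0.16.

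Set directly against far-red light, red light lowered 3, 7, 23 and 29 of the genes at 30 min, 60 min, 3 h and 12 h, against 0.414%, 2.34%, 8.90% and 9.66% of all genes. Of the 112 comparison genes it lowered 8.04%, 20.5%, 53.6% and 83.9% at these times. Lower levels in red than in far-red were thus not particular to the 29. Red light raised none of the 29, against 1.18%, 3.27%, 7.22% and 9.38% of all genes. At 3 h and at 12 h every red library lay below every far-red library for all 29, against 37.5% and 39.1% of all genes. At 12 h the median red minus far-red difference was -2.52 (range -5.78 to -1.36), against -0.04 over all genes. Intensity differed between these lights as well as wavelength.

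Some of the genes had more RNA in blue than in red light, and these lights differed in intensity as well as wavelength. At 12 h blue minus red was positive for 26 of the 29, with a median of 0.39 against -0.01 over all genes, and 3 passed the test as higher in blue, against 0.659% of all genes. Mp1g17690 differed most, with 199, 193 and 162 CPM in blue against 37.1, 43.6 and 39.8 CPM in red (2.17 ± 0.08 SE, adjusted p = 7.0e-33). Mp4g00710 was higher by 1.07 ± 0.04 (SE), and Mp4g13460, with 4.38, 4.34 and 4.26 CPM in blue against 1.502, 1.84 and 1.52 CPM in red, by 1.03 ± 0.15 (SE). Without replicate 1 of blue light at 12 h 5 genes passed, and without replicate 1 of red light 2 did. Asking only for an adjusted p under 0.05, 17 were higher in blue and none lower, where 15.1% of all genes were higher and 15.7% lower. Of the 112 comparison genes, blue minus red at 12 h was positive for 69, with a median of 0.10. By the test with the fold, 3 of the 112 (2.68%) were higher in blue and 1 (0.893%) was lower.

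The lowest blue minus red values at 12 h belonged to MpDIR39 (-0.27, 95% interval -0.553 to 0.008) and MpCALEOSIN (-0.24, 95% interval -0.624 to 0.137), whose intervals include 0. At 30 min none of the 29 passed, and 0.00% of all genes were higher; an unadjusted p under 0.05 was found for 12 of the 29, against 13.1% of all genes, and an adjusted one in limma for 4, all higher in blue, against 0.858% of all genes. At 60 min only Mp6g03560 passed, with 27.2, 29.5 and 29.2 CPM in blue against 11.8, 10.3 and 9.56 CPM in red (1.36 ± 0.10 SE), while 0.123% of all genes did. At 3 h MpERF10 (1.01 ± 0.11 SE) and MpGH19.3 (1.04 ± 0.27 SE) were higher in blue, against 0.781% of all genes. Leaving out any 1 replicate number left 1 gene, and a pseudocount of 5 left none. None of the 29 was lower in blue than in red by this test at 30 min, 60 min, 3 h or 12 h, against 0.0460%, 0.0306%, 0.253% and 0.360% of all genes.

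**Figure D5:**
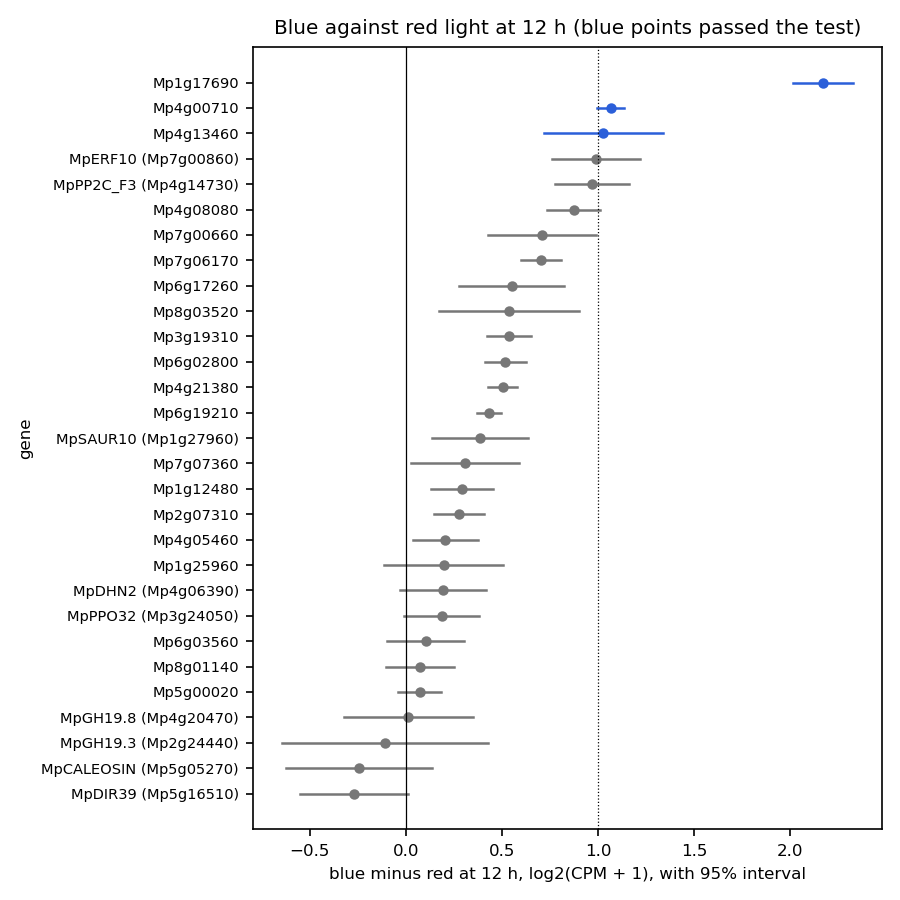
Blue minus red at 12 h in log2(CPM + 1) with 95% intervals for each of the 29 genes, ordered by value; coloured points passed the test, and the dotted line marks the fold asked for. Mp1g17690 lies at 2.17, Mp4g00710 and Mp4g13460 just past 1, and the 3 genes below 0 have intervals that include 0.

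In continued darkness 25 of the 29 stayed short of the threshold against time zero through 12 h. None passed the test after 30 min, 60 min or 3 h of further darkness; at an unadjusted p under 0.05 these were 2, 10 and 17, against 5.39%, 21.9% and 45.9% of all genes. At an adjusted p under 0.05 in limma they were 0 at 30 min, 1 higher and 3 lower at 60 min (2.27% and 6.01% of all genes) and 12 higher and 2 lower at 3 h (28.2% and 10.2%). By the test with the fold, of all genes none passed at 30 min (0.00% in each direction), 0.0766% rose and 0.138% fell at 60 min, and 0.115% rose and 0.0919% fell at 3 h. After 12 h 3 had risen and 1 had fallen, against 0.904% and 1.12% of all genes. Mp7g07360 rose most, with 143, 144 and 141 CPM after 12 h of darkness against 32.2, 30.7 and 27.2 CPM at time zero (2.21 ± 0.14 SE). MpGH19.8 had 27.7, 24.5 and 28.1 CPM against 9.70, 9.04 and 8.54 CPM (1.46 ± 0.17 SE), and Mp6g17260 rose by 1.13 ± 0.14 (SE). The dehydrin gene MpDHN2 went the other way, with 60.7, 55.3 and 49.7 CPM in darkness against 139, 121 and 129 CPM at time zero (-1.22 ± 0.11 SE). Mp5g00020 was close behind at -0.997 ± 0.05 (SE) and passed the fold with TMM factors (-1.11) or without replicate 3 of darkness at 12 h (-1.02), replicate 1 of time zero (-1.01) or replicate 2 of time zero (-1.003).

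Light was also set against time zero. After 12 h 26 of the 29 were lower than at time zero in white, 24 in blue and 27 in red light, against 9.49%, 8.51% and 10.4% of all genes. None was higher in these 3 lights, against 16.8%, 13.9% and 16.8% of all genes. In far-red light 4 were higher than at time zero, against 7.01% of all genes, and none lower, against 3.39%. They were Mp7g07360 (2.92 ± 0.14 SE), MpGH19.8 (1.63 ± 0.17), MpCALEOSIN (1.51 ± 0.19) and Mp6g17260 (1.33 ± 0.14). These comparisons share the time-zero libraries with those of darkness. MpGH19.8 did not pass against time zero in white, blue or red: at 12 h it had 6.20 to 6.66 CPM in white light, against 24.5 to 28.1 CPM in darkness and 8.54 to 9.70 CPM at time zero (-0.43 ± 0.17 SE for white against time zero).

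Related genes that carry a symbol were counted by family at 12 h, on lists chosen with earlier results of these data known. The counts below stand beside shares of all genes that fell of 10.0% in white, 8.84% in blue, 11.1% in red and 1.04% in far-red light, and shares that rose of 13.4%, 10.8%, 13.2% and 2.21%. Of 17 tested AP2/ERF factors, MpERF10 and MpERF18 were among the 3, 2 and 2 that fell in white, blue and red, and 1 rose in red (MpERF15) and 1 in far-red (MpERF8). MpERF18 had a mean of 10.6 CPM in red light, against 67.2 CPM in darkness. Of 19 protein phosphatases of type 2C, 2 fell in each of the 3 lights, MpPP2C_F3 and MpPP2C_K2, and MpPP2C_G rose in white. None of either list fell in far-red light. The 2 of 17 AP2/ERF factors that fell in blue and red, and the 2 of 19 phosphatases, were about the share of all genes, and the white count of the factors held 1 gene more.

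Dirigent protein genes moved both ways, with 9, 8 and 9 of 42 higher and 7, 5 and 6 lower in white, blue and red. In far-red 2 of them were higher and none lower. MpDIR37 averaged 58.5 CPM in red light, against 8.32 CPM in darkness, while MpDIR39 and MpDIR5 fell. Dehydrin and LEA genes, which encode protective proteins of drying tissue, fell in greater number, with 37, 26 and 26 of 64 lower and 2, 4 and 3 higher. In far-red light 9 of these 64 fell and 1 rose, with a median of -0.29, against 0.07 for all genes. MpDHN1, another dehydrin gene, averaged 1.83 CPM in red light against 79.7 CPM in darkness.

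Of 6 genes of phytochrome signalling, 2, 2 and 3 fell in white, blue and red and 1 rose in far-red. The photoreceptor gene MpPHY averaged 749 CPM in far-red and 101 CPM in red, against 332 CPM in darkness at 12 h, and MpFHY1, whose counterpart in Arabidopsis carries phytochrome into the nucleus, averaged 9.05 CPM in red against 65.4 CPM in darkness. Of 9 cytokinin genes 3 fell in each of the 3 lights, among them MpCKX1, for a cytokinin oxidase (3.25 CPM in red against 67.4 CPM in darkness), and 2 rose in far-red, MpLOG and MpCKX2. Of 8 abscisic acid genes 2, 2 and 1 fell, and of 13 WRKY factors 5 fell in each of the 3 lights, with none passing in far-red in either list. Of 21 autophagy genes 1 fell, in red light (MpATG8b), and none passed in white, blue or far-red. The sugar transporter gene MpSUT4 fell in all 4 lights, to a mean of 16.6 CPM in far-red against 52.7 CPM in darkness. Cytochrome P450 genes moved mostly the other way, with 26, 23 and 24 of 85 higher and 4, 4 and 5 lower in white, blue and red, as did the glycosyltransferases UGT (10 of 30 higher in each, with 2, 1 and 2 lower) and the expansins (9, 11 and 11 of 36 higher, with 2, 2 and 3 lower). In far-red light 9 P450 genes, 3 UGT genes and 3 expansins rose, and none of these families had a gene that fell. Of 13 lipoxygenase genes 3 fell in each of white, blue and red and 1 rose in white. Of 13 MYB factors 3, 2 and 4 rose and 2, 1 and 1 fell in these 3 lights, and of 36 bHLH factors 3, 1 and 2 rose and 5, 2 and 8 fell. In far-red 1 lipoxygenase gene rose and 1 fell, 1 MYB factor rose, and 1 bHLH factor rose and 1 fell.

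Markers of dividing cells went the other way from the 29 genes in white, blue and red light, and were also higher in far-red than in darkness. Their summed level over 13 genes at 12 h was 332 to 344 CPM in white, 282 to 308 CPM in blue, 312 to 362 CPM in red and 105 to 108 CPM in far-red light, against 61.3 to 67.6 CPM in darkness. Of 12 tested, 9 were higher in each of white, blue and red and 4 in far-red. Over 23 markers of oil body cells the sum was 228 to 235 CPM in white, 209 to 215 CPM in blue, 219 to 229 CPM in red and 137 to 149 CPM in far-red, against 116 to 132 CPM in darkness, with 9 to 11 of them at 0. A large part of the rise in this sum lay in 1 gene, MpMTPSL-like. It averaged 97.8 CPM in white, 78.6 CPM in blue and 107 CPM in red, against 11.9 CPM in darkness. Of 8 oil body markers tested, 4, 4 and 3 were higher and 1 was lower in white, blue and red, and none passed in far-red. The one that fell, MpMTPSL1, averaged 20.1 CPM in white, 23.6 CPM in blue and 13.2 CPM in red, against 50.1 CPM in darkness. The 2 planned markers of male sexual organs and sperm that were found by symbol, MpDUO1 and MpPRM, summed to at most 1.23 CPM in these groups. MpRBCS, for the small subunit of Rubisco, was the only planned marker of photosynthetic tissue found by symbol. It was present in all 5 of these groups, at 86.5 to 188 CPM. Other planned markers of these cell types were not found and are not counted. The part of these cell types in the falls was not tested.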

How the data were processed

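STAR is named in the submitters' processing notes. The sources used here give no version for it, and no build, annotation or quantifier. The deposited values carry no unit. They were taken as CPM, estimated read counts scaled to a fixed sum by the authors, because each library's column sums to the same total and all its genes share 1 step per read (a median of 92.3% of values above 0 are whole multiples within 0.01 of a step). They had been planned for as TPM; the test did not change. A second deposited table holds the authors' means of the 3 CPM values and chose the genes.

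Genes with at least 1 CPM in 3 or more of 78 libraries were kept (13054 of 19355, all 29 members among them, also without the 24 h libraries). log2(CPM + 1) was fitted with limma 3.58.1 in R 4.3.3, 1 mean per group, trend in the prior variance, Benjamini-Hochberg adjustment over all genes. Fold changes are on the log2(CPM + 1) scale, which understates the change of low genes, and their errors are SE. Depth was 17237516 to 42465633 estimated reads per library, so at 1 CPM a library holds 17.2 to 42.5 estimated reads. Intervals and SE cover the spread between these samples. Names come from matching identifiers to locus tags of MpTak2_v7.1 (17384 matched).

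The members and the gene lists were chosen with earlier results of these data known. Named are all members with a symbol, the 6 with most reads in darkness at times the choice did not use, the 2 with the largest mean falls at 60 min and 3 h, and the 2 at each extreme of the comparisons; others named in the text (Mp4g05460, Mp8g03520, Mp7g00660, Mp4g13460, Mp6g03560, Mp6g17260, Mp1g12480) were named after their values were seen, as genes at the edge of a call or behind a small count. Alternatives were other pseudocounts, filters, TMM factors, fits of 2 groups, left-out libraries, a replicate block and voom. Promoters, sequences, rhizoid markers and a list of starvation genes were not analysed here.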

Additional observations from a re-analysis of the deposited data

Results flagged for a closer look

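The values below are differences of a gene's response (light minus darkness at the same time) between 12 h and 3 h, as 12 h minus 3 h on the log2(CPM + 1) scale, tested in limma across all genes. They are listed because the response at the 2 times differed by this test, a contrast chosen after the data were seen. Response became less negative for MpERF10 in white light, by 1.01 ± 0.16 (SE, adjusted p = 3.4e-07), for Mp7g06170 in blue by 1.49 ± 0.07 and in red by 1.51 ± 0.07, and for Mp4g08080 in blue by 1.21 ± 0.10. More negative responses at 12 h gave -5.22 ± 0.20 for Mp7g07360 in white and -3.88 ± 0.11 for Mp1g17690 in red. They gave -3.77 ± 0.20 for MpDIR39 in blue and -3.43 ± 0.20 for Mp7g00660 in white. In far-red light MpGH19.3 gave -1.96 ± 0.38 (adjusted p = 6.9e-05): its difference from darkness was -0.26 at 12 h and 1.70 at 3 h.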

How the results depend on the processing

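The number of genes that met the rule at 24 h was 47 with a pseudocount of 0.1 (27 of the 29 among them), 23 with 5 (21), 8 and 88 with far-red limits of 0.25 and 1, 99 and 8 with fall limits of -1.5 and -3, 16 with TMM factors (15), and 24 to 34 without 1 replicate. Counts for white, blue and red at 12 h stayed within 1.5 times under every alternative. With no minimum fold, 16, 12 and 19 genes were lower in white, blue and red at 30 min (13.7% to 15.3% of all genes), 19, 17 and 20 at 60 min (20.5% to 22.3%) and 26 in blue at 3 h (34.0%). In far-red 12 were higher and 5 lower at 60 min (38.3% and 12.4% of all genes), 9 higher and 6 lower at 3 h (28.0% and 15.5%), and 16 passed at 12 h, 8 in each direction (33.7% and 20.1%). Blue over red gave 14 higher at 3 h (13.0%) and 17 at 12 h (15.1%), darkness at 12 h against time zero 17 higher (38.2%) and 3 lower (17.4%), and far-red against time zero 17 higher (46.7%) and 7 lower (22.6%). A pseudocount of 5 gave 5 in red and 1 in far-red at 60 min, and 0 for blue over red at 3 h. TMM factors gave 1 in far-red at 60 min and 2 lower for darkness over time zero. A pseudocount of 0.1 and voom, an alternative added after the data were seen, each gave 5 for blue over red at 12 h and 2 lower for darkness over time zero, and voom gave 1 for blue over red at 3 h. Without 1 replicate number or 1 library, blue at 30 min ranged from 1 to 2, far-red at 60 min from 1 to 4, blue over red at 3 h was 1, blue over red at 12 h ranged from 2 to 5 and darkness below time zero from 1 to 2. Among single genes, 20 values no longer reached the threshold and 7 came to reach it, against 1845 on the same side. None of the results recomputed changed direction; the cause of the shifts was not tested. Replicate numbers did not pair the libraries: same-numbered libraries of compared groups deviated together with a median correlation of 0.002 (-0.372 to 0.337), and with the replicate block 29 genes fell in each of white, blue and red at 12 h, as without it, and it changed no count. Genes near 1 CPM are limited by depth.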
